A study of Mus musculus with 14 samples.

Results

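The trained, vehicle-treated THY-Tau22 mice (TAU VEH, 2 mice) were compared with the trained, vehicle-treated wild-type mice (WT VEH, 2 mice) by RNA-seq of the dorsal hippocampus. Of the 14 libraries of the series, 4 belong to this comparison, and of 25933 genes counted, 16820 passed a filter on low counts and were tested. All 4 mice were males aged 8 months on the C57BL6/J background, and all were trained to find a hidden platform in the Morris water maze before the tissue was taken. TAU VEH mice carried the THY-Tau22 transgene in the heterozygous state and received empty carbon nanospheres (CSP), whereas WT VEH mice carried no transgene and received saline. Genotype and vehicle therefore changed together, and their parts in any difference cannot be told apart. The other libraries of the same experiment came from WT mice that stayed in the home cage with saline (WT VEH_HC, 3 mice) and from trained THY-Tau22 mice given the acetyltransferase activator TTK21 on nanospheres (TAU MOL, 2 mice). A second experiment held untrained mice, 3 WT and 2 THY-Tau22. The authors left out some libraries of the learning experiment that stood apart from the rest and came from 1 litter, a choice made after the data had been seen.

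The transgene of this line drives a mutated form of human Tau in neurons from the Thy1.2 promoter. Tau is a protein that binds microtubules, and in tauopathies it is phosphorylated in excess, leaves the microtubules and gathers into neurofibrillary tangles. The pyramidal cells of the CA1 field of the hippocampus are among the neurons that carry the pathology in this line, microglia and astrocytes react to it, and spatial memory fails with age. Spatial training normally switches on immediate early genes (IEGs) in hippocampal neurons, genes that are transcribed within minutes of synaptic activity and that encode transcription factors or proteins of the synapse. The comparison therefore asks how the hippocampus of learning mice differs between tauopathic and healthy animals.

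Levels are given as CPM, the counts of a gene per 1000000 counts of its library after scaling with TMM factors, and a log2 fold change is TAU VEH relative to WT VEH. A value in brackets after a gene, with no unit, is its log2 fold change. A gene counted as called when edgeR's quasi-likelihood test gave a Benjamini-Hochberg adjusted p below 0.05 and the groups differed by more than 0.2 on the log2 scale. The 4 libraries held from 24693713 to 47735120 counts, the shallowest of them being TAU VEH replicate 2, and 5.71% to 7.87% of the counts lay on mitochondrial genes. The p-values rest on the spread among single mice pooled over all 9 libraries of the learning experiment, with only 2 mice in each group. A lower level in bulk tissue can stem from fewer cells of a type or from less RNA per cell, and these cannot be told apart here.

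The gene whose promoter drives the transgene was higher in the transgenic mice. Thy1, which encodes a surface glycoprotein of neurons and lies at chr9:43851467-43856662 (mm9), stood at 786 and 855 CPM in WT VEH and 1805 and 1998 CPM in TAU VEH, a log2 fold change of 1.21 ± 0.07 (SE, adjusted p = 3.39e-05). Both TAU VEH libraries lay above every WT library of the experiment, and both TAU MOL libraries stood as high, at 1999.8 and 2109 CPM. The endogenous mouse gene Mapt, which encodes Tau, stood at 698 and 729 CPM in WT VEH and 755 and 743 CPM in TAU VEH, a difference of 0.07 ± 0.07 (SE) that was not called (adjusted p = 0.594). The Thy1 reads can include the parts of Thy1 that the transgene carries, so that Thy1 checks the genotype labels and is no measure of the endogenous gene. The 2 acetyltransferases that TTK21 activates were not called: Crebbp, which encodes CBP, stood at 62.9 and 55.3 CPM in WT VEH and 52.4 and 48.9 CPM in TAU VEH (adjusted p = 0.0846), and Ep300, which encodes p300, at 100.4 and 94.0 CPM in WT VEH and 87.9 and 79.7 CPM in TAU VEH (adjusted p = 0.0869). With the replicate number as a block Ep300 was called lower (-0.21, adjusted p = 0.0444).

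Among the 16820 genes tested, 2423 (14.4%) were called, of which 608 (3.61% of the genes tested) were higher and 1815 (10.8%) lower in TAU VEH. Most differences were small. The median log2 fold change was 0.34 among the genes called higher and -0.44 among those called lower, and 124 called genes passed a log2 fold change of 1 in size, 24 higher and 100 lower. The 2 groups did not overlap in 2422 of the called genes and in 9741 of all genes tested. Scaling by library size alone, without TMM factors, moved the median of all genes by 0.15 on the log2 scale and turned the split into 2578 higher and 1020 lower, so that the directions below are relative to TMM scaling. Leaving out 1 of the 4 libraries at a time gave 915 called genes without TAU VEH replicate 1, 1232 without TAU VEH replicate 2, 1223 without WT VEH replicate 1 and 1276 without WT VEH replicate 2. The genes chosen by rule to be named below held 101 called genes, of which 43, 29, 39 and 32 lost their call in these fits, in the same order.

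The direction of the calls followed the base composition of the genes. GC content and log2 fold change had a Spearman rho of -0.517 across 16780 genes, given as a description because genes share libraries. The genes called higher had a median GC content of 44.0% over their exons and those called lower 57.1%, against 50.0% for all genes tested, and the genes called higher were long, with a median of 7425 bases of exon against 3462 bases for all. When genes were split into 10 equal classes by GC content, 9.18% of the lowest class were called higher and 1.43% lower. In the highest class, 0.119% were called higher and 43.3% lower. The libraries differed in this trend: for the log2 ratio of each library to the mean of the 9, rho with GC content was -0.617 and -0.410 in TAU VEH, 0.085 and 0.275 in WT VEH, -0.396 and -0.472 in TAU MOL, and 0.449, 0.414 and 0.455 in WT VEH_HC. A smooth curve of GC content and gene length was therefore also removed from each library before the fit, which is called the correction below. With the correction rho was -0.020 and 484 genes (2.88%) were called, 82 higher (0.488%) and 402 lower (2.39%), and 428 genes were called in both fits, 51 higher and 377 lower. Values below are without the correction unless the correction is named. Calls also became more frequent with the level of a gene. In the highest of 10 classes by mean CPM 34.2% were called lower (7.67% with the correction), and in the lowest 0.535% (0.119%). The shares over all genes given below are therefore low for lists of abundant genes.

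**Figure D1:**
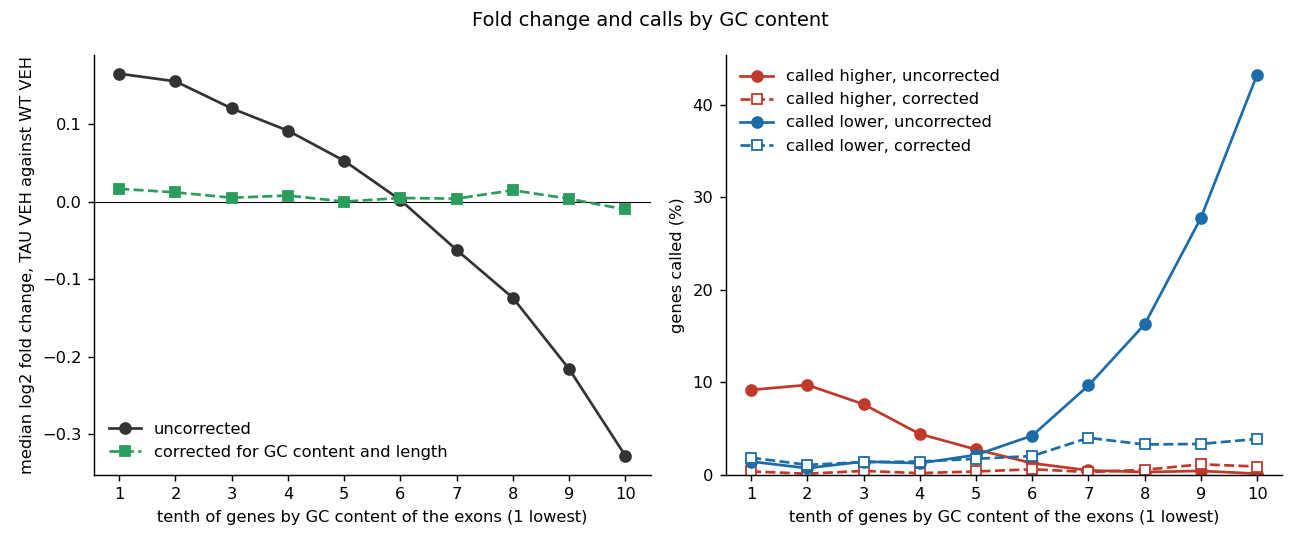
Genes were ordered by the GC content of their exons and split into 10 equal classes (x axis). Left, the median log2 fold change of TAU VEH against WT VEH, which ran from 0.17 in the lowest to -0.33 in the highest class without the correction and stayed near 0 with it. Right, the percentage of genes called in each direction, with genes called lower reaching 43.3% in the highest class without the correction and 3.87% with it.

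Composition of the samples also moved with the groups. Markers of the choroid plexus, the secretory epithelium of the ventricles, summed to 2433 and 1572 CPM in WT VEH and to 237 and 280.3 CPM in TAU VEH, with none of the 14 markers at 0. A score of these markers used as a term in the model left 0 genes called (2220 at an unadjusted p under 0.05), and since the score separated the WT VEH libraries (4.51 and 3.82) from the TAU VEH libraries (1.66 and 1.88), the choroid plexus share and the group cannot be told apart in that fit. Of the other 16 marker lists, CA1 pyramidal cells had 5 of 8 markers lower, against 10.8% of all genes. The others had at most 2 called markers in 1 direction. Dentate granule cell markers, which label the neighbouring layer of the same tissue, had 0 of 8 called and summed to 749.7 to 842 CPM in the 4 libraries. Markers of the ependyma, meninges, CA2 and CA3, oligodendrocytes, endothelial cells, pericytes and blood also had 0 called.

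Several genes of reactive microglia and astrocytes, cells that respond to Tau pathology, were higher in TAU VEH. Of the 8 inflammatory genes that the study listed, 4 were called higher and 0 lower, with and without the correction (3.61% of all genes without it), with a median log2 fold change of 0.67 (0.71 with the correction) against 0.00 for all genes tested. The study chose this list on these samples, so that its direction is not independent evidence. Gfap (chr11:102748650-102762226), the intermediate filament protein that reactive astrocytes accumulate, stood at 451 and 423 CPM in WT VEH and 654 and 764 CPM in TAU VEH, a log2 fold change of 0.70 ± 0.10 (SE, adjusted p = 0.00143). C4b (chr17:34865325-34880827), a component of the complement cascade, stood at 74.7 and 80.0 CPM in WT VEH and 112 and 147 CPM in TAU VEH, a log2 fold change of 0.74 ± 0.12 (SE, adjusted p = 0.00214). Both genes were higher in each TAU VEH library than in each of the 5 WT libraries, and both kept their call with the correction (adjusted p = 0.00606 for Gfap and 0.00465 for C4b). Reads of C4b can be shared with its near copy C4a, and Gfap overlaps Gm17536 on the other strand.

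Itgax, the CD11c integrin chain of activated microglia, stood at 0.508 and 0.291 CPM in WT VEH and 1.92 and 1.55 CPM in TAU VEH, a log2 fold change of 2.11 ± 0.34 (SE, adjusted p = 0.00229). Irf8, a transcription factor of the microglial lineage, stood at 5.10 and 4.48 CPM in WT VEH and 6.71 and 7.47 CPM in TAU VEH, a log2 fold change of 0.56 ± 0.12 (SE, adjusted p = 0.011). Both stayed called with the correction (adjusted p = 0.0104 and 0.0227). Itgax kept its call with any of the 4 libraries left out, whereas Irf8 lost it without TAU VEH replicate 2 (adjusted p = 0.0819) and without WT VEH replicate 2 (adjusted p = 0.1). The 4 members of the list that were not called had adjusted p from 0.0792 for the chemokine gene Ccl6 to 0.472 for the antigen presentation chaperone Cd74, and stood under 8 CPM in all 9 libraries.

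Disease-associated microglia are a state that microglia adopt around protein aggregates, with genes of phagocytosis and lipid handling switched on. Of 20 genes of that state, 4 were called higher and 0 lower, with a median of 0.14, and 2 with the correction (median 0.24), against 3.61% and 0.488% of all genes called higher. Clec7a, the dectin-1 receptor, had the largest change of them and stood at 0.266 and 0.159 CPM in WT VEH and 1.66 and 1.28 CPM in TAU VEH, a log2 fold change of 2.78 ± 0.46 (SE, adjusted p = 0.00231). Lyz2, lysozyme of myeloid cells, stood at 3.17 and 3.10 CPM in WT VEH and 6.28 and 8.45 CPM in TAU VEH, a log2 fold change of 1.22 ± 0.18 (SE, adjusted p = 0.00167). Both genes separated the groups, kept their calls with the correction, and kept them with any of the 4 libraries left out. Clec7a and Itgax stood under 3 CPM in all 9 libraries of the experiment, so that counting error adds to the spread between mice there. Ctss, a lysosomal protease of microglia (0.51, adjusted p = 0.0186), and Lpl, lipoprotein lipase (0.35, adjusted p = 0.0395), were also called but lost their calls with the correction and with any of the 4 libraries left out.

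Other leading genes of that state were not called. Trem2, the receptor that starts it, stood at 17.6 and 19.6 CPM in WT VEH and 14.7 and 21.1 CPM in TAU VEH (-0.07), its adaptor Tyrobp at 14.7 and 15.7 CPM in WT VEH and 14.0 and 18.2 CPM in TAU VEH (0.07), and the lipid carrier Apoe at 1582 and 1527 CPM in WT VEH and 1419 and 1712 CPM in TAU VEH (0.01). In these 3 genes the groups overlapped. Markers of resting microglia had 1 of 10 called, Tmem119, a membrane protein of homeostatic microglia, at 40.7 and 45.8 CPM in WT VEH and 32.0 and 35.8 CPM in TAU VEH (-0.35, adjusted p = 0.0199), which lost its call with the correction, without TAU VEH replicate 1 (adjusted p = 0.2) and without WT VEH replicate 2 (adjusted p = 0.176).

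The next lists are to be read against 3.61% of all genes called higher and 10.8% lower, and 0.488% and 2.39% with the correction. Complement genes other than C4b had 0 of 13 called, with a median of 0.23 (0.29 with the correction, when C1qb, a chain of the first complement component, was called at 0.56). Interferon response genes had 0 of 15 called and a median of 0.12. Of 10 further genes of reactive astrocytes, Osmr, the oncostatin M receptor, was called at 0.68 (adjusted p = 0.0154) and lost its call with the correction, and the median of the list was 0.50. Of 12 antigen presentation genes, Tap2 and Tapbp, which load peptides onto class I molecules, were called lower (-0.44 and -0.43) and neither was called with the correction. In that list 9 of the 12 genes had a positive log2 fold change. Astrocyte markers had 2 of 8 higher, the water channel gene Aqp4 (0.37) and the glutamate transporter gene Slc1a2 (0.35), and 0 with the correction.

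**Figure D2:**
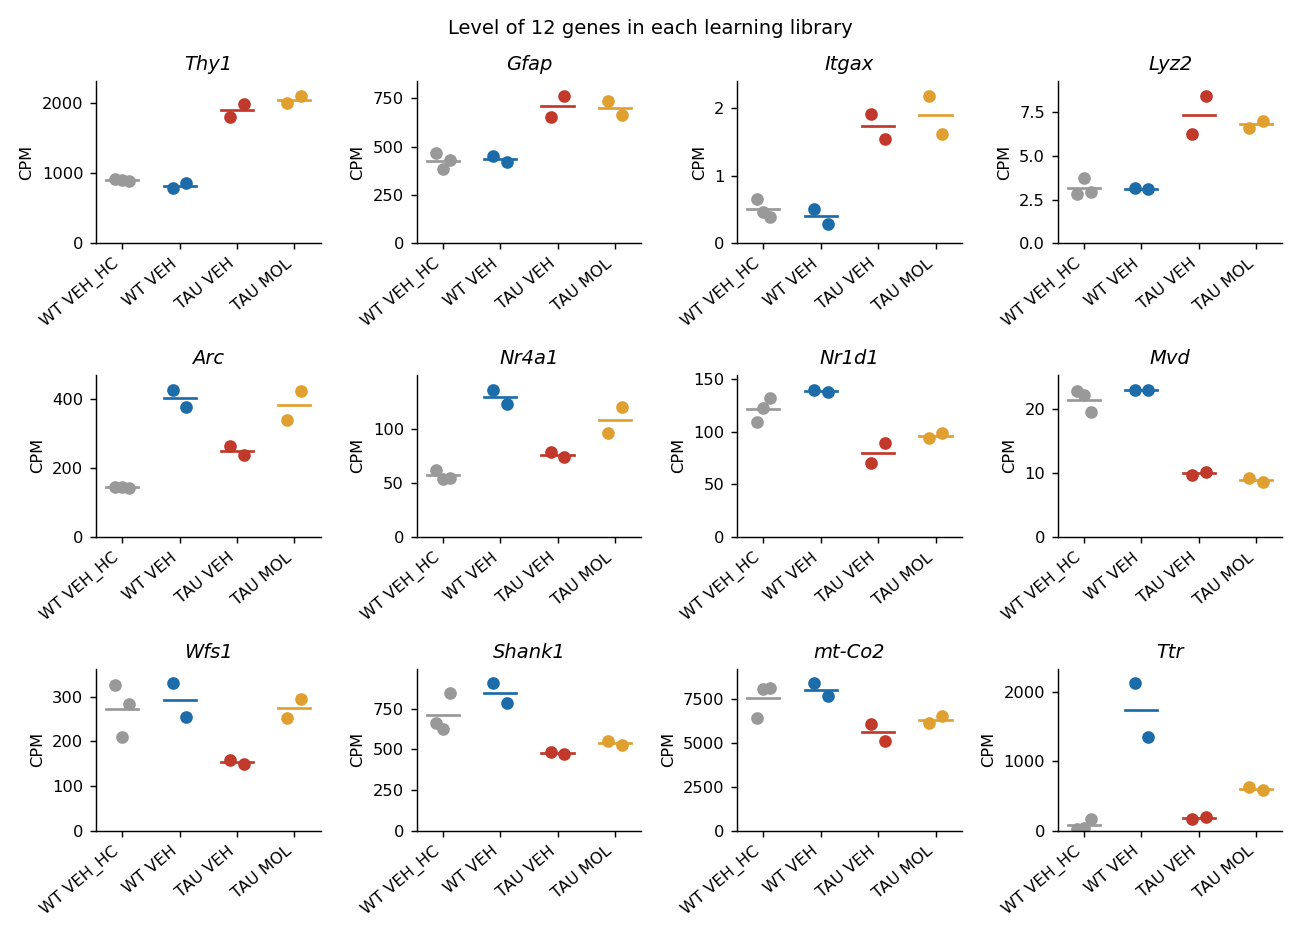
Each point is the CPM of a gene in 1 library of the learning experiment and each bar a group mean, with the y axis starting at 0 and groups on the x axis. TAU VEH (2 libraries) stood above WT VEH (2 libraries) for Thy1, Gfap, Itgax and Lyz2 and below it for Arc, Nr4a1, Nr1d1, Mvd, Wfs1, Shank1, mt-Co2 and Ttr, without overlap in any of them, and WT VEH_HC and TAU MOL are shown beside them.

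Most of the study's IEGs were lower in trained TAU VEH mice than in trained WT VEH mice. Of the 6 IEGs that the study listed on these samples, 4 were called lower and 0 higher (2 lower with the correction), against 10.8% of all genes called lower, with a median log2 fold change of -0.60 (-0.34 with the correction). Arc (chr15:74499513-74503000), which encodes a cytoskeleton-associated protein that removes AMPA receptors from the synapse, stood at 427 and 375 CPM in WT VEH and 263 and 236 CPM in TAU VEH, a log2 fold change of -0.68 ± 0.10 (SE, adjusted p = 0.00167). Nr4a1, an orphan nuclear receptor that controls genes of long-term memory, stood at 136 and 123 CPM in WT VEH and 78.4 and 73.7 CPM in TAU VEH, a log2 fold change of -0.77 ± 0.11 (SE, adjusted p = 0.00142). Both TAU VEH libraries lay below both WT VEH libraries for each of them and above the home cage WT libraries, which stood at 144, 146 and 143 CPM for Arc and at 62.1, 53.7 and 54.8 CPM for Nr4a1. TAU MOL stood at 339 and 424 CPM for Arc and at 95.9 and 121 CPM for Nr4a1.

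Egr1, a zinc finger transcription factor needed for lasting plasticity, stood at 398 and 285 CPM in WT VEH and 215 and 164 CPM in TAU VEH, a log2 fold change of -0.84 ± 0.16 (SE, adjusted p = 0.00467). Junb, a partner of Fos in the AP-1 complex, stood at 91.2 and 92.6 CPM in WT VEH and 62.1 and 66.2 CPM in TAU VEH, a log2 fold change of -0.52 ± 0.09 (SE, adjusted p = 0.00295). The groups did not overlap in either gene. Fos itself stood at 21.3 and 17.1 CPM in WT VEH and 16.01 and 14.4 CPM in TAU VEH (-0.33, adjusted p = 0.149) and Dusp1, a phosphatase of MAP kinases, at 13.6 and 17.3 CPM in WT VEH and 13.8 and 13.9 CPM in TAU VEH (-0.16, adjusted p = 0.438), and neither was called. With the correction Nr4a1 (-0.54, adjusted p = 0.0327) and Egr1 (-0.75, adjusted p = 0.0372) stayed called, whereas Arc (-0.38, adjusted p = 0.0789) and Junb (-0.17, adjusted p = 0.401) did not. Egr1 lost its call without TAU VEH replicate 2 (adjusted p = 0.0549) and without WT VEH replicate 1 (adjusted p = 0.0619), and Arc, Nr4a1 and Junb kept theirs with any of the 4 libraries left out.

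Of 40 other genes known to respond to neuronal activity, 12 were called lower and 1 higher, with a median of -0.18 (-0.09 with the correction), against 10.8% and 3.61% of all genes. With the correction 2 were lower and 0 higher, against 2.39% and 0.488%. The lower genes held transcription factors (Egr2, Egr4, Nr4a2, Fosb, Csrnp1 and Per1), kinases and phosphatases (Sik1, Dusp5, Dusp6), the neuropeptide precursor Vgf, the pseudokinase Trib1 and the small GTPase Arl4d. Per1, an activity-regulated clock gene, stood at 181 and 149 CPM in WT VEH and 101 and 103 CPM in TAU VEH, a log2 fold change of -0.69 ± 0.11 (SE, adjusted p = 0.00179). Egr4 stood at 75.8 and 57.2 CPM in WT VEH and 45.0 and 41.1 CPM in TAU VEH, a log2 fold change of -0.62 ± 0.13 (SE, adjusted p = 0.00676). Nr4a2, a nuclear receptor related to Nr4a1, stood at 77.1 and 59.1 CPM in WT VEH and 50.4 and 38.1 CPM in TAU VEH, a log2 fold change of -0.62 ± 0.14 (SE, adjusted p = 0.0128). The groups did not overlap in these 3 genes, and Nr4a2 (-0.65) and Dusp6 (-0.40) were the members that stayed called with the correction. Egr4 and Nr4a2 lost their calls without TAU VEH replicate 2 (adjusted p = 0.0631 and 0.107) and without WT VEH replicate 1 (adjusted p = 0.0805 and 0.149).

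Some well-known activity genes did not follow. Ptgs2, the inducible cyclooxygenase, was the member called higher, at 16.6 and 17.2 CPM in WT VEH and 24.4 and 23.3 CPM in TAU VEH (0.50, adjusted p = 0.00455), and it lost its call with the correction and without TAU VEH replicate 1 (adjusted p = 0.058). Bdnf, the neurotrophin, stood at 39.6 and 39.3 CPM in WT VEH and 45.2 and 41.1 CPM in TAU VEH (0.13), and Npas4, a transcription factor induced by calcium entry, at 9.45 and 12.2 CPM in WT VEH and 9.65 and 10.6 CPM in TAU VEH (-0.09). Neither was called. With 1 library left out the number of these genes called lower ran from 2 without WT VEH replicate 1 to 7 without WT VEH replicate 2, with 4 without TAU VEH replicate 1 and 3 without TAU VEH replicate 2, and Per1 and Arl4d kept their calls in every such fit.

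Promoters of activity-regulated genes carry short sites for the factors that activity switches on: the cAMP response element (TGACGTCA) for CREB, the CArG box for the serum response factor, and the Egr box (GCGGGGGCG) for Egr proteins. Letters of these sites were searched in RefSeq promoters (250 bases before to 50 after the start of the gene, GRCm38.p6 build) for the 11 activity-regulated genes that were called lower and had a promoter in the table. The cAMP response element was found in 1, the CArG box in 2 and the Egr box in 2 of them. Of 11216 tested genes with a promoter, 3.40% held the cAMP response element, 1.62% the CArG box and 6.24% the Egr box, and of the 1283 called lower 3.20%, 1.95% and 8.57%. The 420 promoters of genes called higher held them in 2.14%, 2.14% and 9.29%. Fosb holds the other Egr box and is not shown. The promoters of the other 4 genes with a site are shown to let the sites be seen in their surroundings, for Nr4a1, whose values stand above (chr15:101266596-101266895, plus strand, Egr box on the reverse strand), Arl4d (chr11:101665291-101665590, plus strand, cAMP response element), Egr2 (chr10:67537619-67537918, 1 of several starts in the table, plus strand, CArG box) and Dusp5 (chr19:53528895-53529194, plus strand, a pair of adjoining CArG boxes). The search covered both strands, capitals mark the site, and its first base lies 60 bases before the start in Nr4a1, 26 in Arl4d, 72 in Egr2, and 82 and 72 in Dusp5.
Nr4a1: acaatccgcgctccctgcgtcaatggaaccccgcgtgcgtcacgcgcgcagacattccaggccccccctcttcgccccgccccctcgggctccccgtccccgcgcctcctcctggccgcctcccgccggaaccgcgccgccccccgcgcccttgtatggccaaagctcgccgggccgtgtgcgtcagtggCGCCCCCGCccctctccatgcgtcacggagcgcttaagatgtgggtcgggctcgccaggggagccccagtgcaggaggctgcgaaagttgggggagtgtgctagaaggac
Arl4d: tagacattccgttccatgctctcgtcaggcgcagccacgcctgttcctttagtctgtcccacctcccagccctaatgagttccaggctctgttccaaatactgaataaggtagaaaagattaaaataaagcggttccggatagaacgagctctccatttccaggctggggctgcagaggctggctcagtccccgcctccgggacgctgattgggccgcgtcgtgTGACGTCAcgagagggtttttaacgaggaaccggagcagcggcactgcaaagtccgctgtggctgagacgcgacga
Egr2: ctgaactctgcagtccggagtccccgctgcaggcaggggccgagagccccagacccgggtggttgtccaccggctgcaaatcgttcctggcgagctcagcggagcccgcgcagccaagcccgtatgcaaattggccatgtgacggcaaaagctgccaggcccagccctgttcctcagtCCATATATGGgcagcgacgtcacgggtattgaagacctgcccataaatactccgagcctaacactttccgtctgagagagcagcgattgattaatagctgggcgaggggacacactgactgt
Dusp5: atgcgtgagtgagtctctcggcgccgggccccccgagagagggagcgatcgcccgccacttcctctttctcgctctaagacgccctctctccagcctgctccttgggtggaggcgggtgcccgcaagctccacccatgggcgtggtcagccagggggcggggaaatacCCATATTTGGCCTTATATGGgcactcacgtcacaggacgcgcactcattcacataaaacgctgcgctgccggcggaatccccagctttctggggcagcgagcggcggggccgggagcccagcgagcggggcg
Arl4d stood at 21.0 and 22.8 CPM in WT VEH and 15.4 and 15.5 CPM in TAU VEH (-0.50, adjusted p = 0.00256), Egr2 at 9.57 and 6.83 CPM in WT VEH and 6.06 and 4.68 CPM in TAU VEH (-0.60, adjusted p = 0.0452) and Dusp5 at 45.4 and 45.6 CPM in WT VEH and 34.6 and 33.1 CPM in TAU VEH (-0.42, adjusted p = 0.00879). A site is a match of letters only, and the shares among genes called lower were close to those among all promoters for the cAMP response element and the CArG box.

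Choroid plexus markers were among the largest decreases, ranked over called genes with a mean of at least 100 counts and no overlap of the groups. All 14 markers of that epithelium were called lower, with and without the correction, with a median log2 fold change of -2.72 (-2.71 with the correction). Ttr, which encodes transthyretin, the thyroid hormone carrier that the choroid plexus secretes into the cerebrospinal fluid, stood at 2118 and 1352 CPM in WT VEH and 171 and 204 CPM in TAU VEH, a log2 fold change of -3.21 ± 0.63 (SE, adjusted p = 0.00557). Kcnj13, a potassium channel of that epithelium, stood at 7.59 and 3.84 CPM in WT VEH and 0.573 and 0.679 CPM in TAU VEH, a log2 fold change of -3.21 ± 0.38 (SE, adjusted p = 0.00101). Slc4a5, a bicarbonate transporter that takes part in fluid secretion, stood at 28.5 and 15.3 CPM in WT VEH and 2.01 and 3.59 CPM in TAU VEH, a log2 fold change of -3.03 ± 0.39 (SE, adjusted p = 0.00111). The WT VEH libraries differed among themselves by more than the TAU VEH libraries did, and the WT VEH libraries stood alone: the home cage WT libraries held 31.5, 37.1 and 166 CPM of Ttr and TAU MOL 630.1 and 582 CPM.

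The other genes among the largest decreases were Mfrp, Kcne2, Aqp1, Tmem72 and Trpv4, and after the correction Col8a1, Cldn1, Slc16a8, 1500015O10Rik, Abca4 and F5, the gene of coagulation factor V. Aqp1, a water channel of the apical membrane of the choroid plexus, stood at 23.3 and 12.95 CPM in WT VEH and 1.92 and 2.91 CPM in TAU VEH, a log2 fold change of -2.96 ± 0.40 (SE, adjusted p = 0.00117). Trpv4, a calcium channel that senses osmolarity, stood at 24.03 and 13.1 CPM in WT VEH and 2.23 and 3.51 CPM in TAU VEH, a log2 fold change of -2.74 ± 0.28 (SE, adjusted p = 0.000957). F5 stood at 26.6 and 23.97 CPM in WT VEH and 4.88 and 8.08 CPM in TAU VEH, a log2 fold change of -2.00 ± 0.26 (SE, adjusted p = 0.00114). These genes lay in no marker list apart from Kcne2, Aqp1 and Tmem72, and all of them stood higher in TAU MOL than in TAU VEH, with Aqp1 at 6.63 and 6.48 CPM in TAU MOL. Mfrp shares its locus with Rnf26 and C1qtnf5 and Slc16a8 with Pick1, so that the counting without strand may have divided reads between them.

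Kl, which encodes klotho, a coreceptor of fibroblast growth factor 23, and which the study listed as a plasticity gene, stood at 107 and 87.0 CPM in WT VEH and 35.3 and 37.3 CPM in TAU VEH, a log2 fold change of -1.42 ± 0.13 (SE, adjusted p = 0.000591). Its home cage WT libraries stood at 32.9, 29.5 and 38.5 CPM, close to TAU VEH and below both WT VEH libraries. Nts, the neurotensin precursor of the same list, stood at 3.21 and 1.72 CPM in WT VEH and 1.22 and 1.28 CPM in TAU VEH, a log2 fold change of -0.99 ± 0.29 (SE, adjusted p = 0.0398). Kl kept its call with the correction and with any of the 4 libraries left out, whereas Nts lost it with the correction (adjusted p = 0.0595) and without TAU VEH replicate 1, TAU VEH replicate 2 or WT VEH replicate 1 (adjusted p = 0.225, 0.123 and 0.381). The other 3 plasticity genes, the kainate receptor subunit Grik4 (0.15), the scaffold Homer3 (0.20) and the vesicle protein Sv2b (0.28), were not called. Homer3 was called higher with the correction (0.47, adjusted p = 0.013) and with library size alone. Sv2b, at an adjusted p of 0.0791, was called higher by DESeq2 (adjusted p = 0.0191), with library size alone, with no filter, in a fit of only the 4 libraries and with the replicate block. Kl moved with the other choroid plexus markers across the libraries, and their part in its result was not tested.

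With 1 library left out, 9 of the 14 choroid plexus markers were called lower without TAU VEH replicate 1, 12 without TAU VEH replicate 2, 11 without WT VEH replicate 1 and 14 without WT VEH replicate 2. The medians in these fits ran from -2.25 to -2.94. Ttr lost its call without TAU VEH replicate 1 (adjusted p = 0.0745). In the untrained mice the median of the same list had the opposite sign, 0.90, and 1 library held most of it. Without untrained THY-Tau22 replicate 2 the untrained median was 0.17, with 8 of the 14 markers positive and 6 negative, and without replicate 1 it was 1.48.

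**Figure D3:**
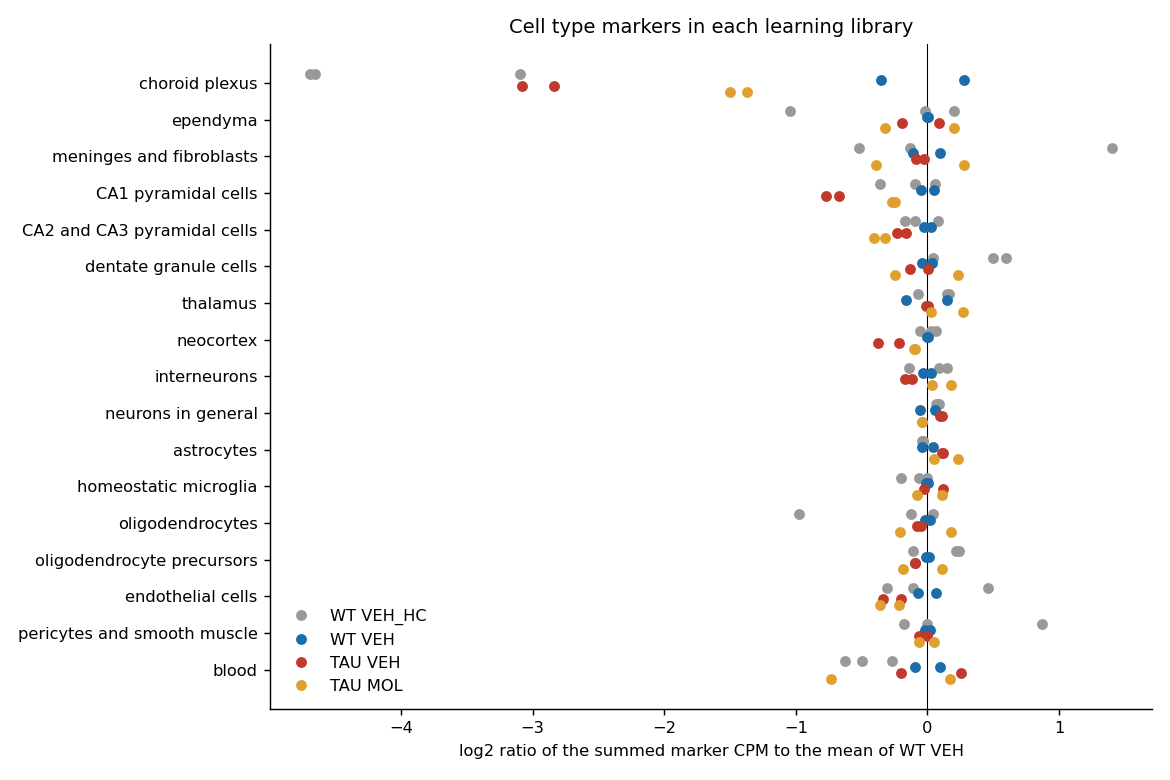
Each point is the summed CPM of the markers of a cell type (y axis) in 1 library, as the log2 ratio to the mean of the 2 WT VEH libraries (x axis), with the groups by colour. Choroid plexus markers of TAU VEH lay far to the left of WT VEH (summed CPM 237 and 280.3 against 2433 and 1572), CA1 markers somewhat to the left (689 and 739 against 1218 and 1139.8), and the dentate markers at about 0.

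Most markers of CA1 pyramidal cells were lower in TAU VEH. Of 8 markers 5 were called lower, with a median of -0.67, and 3 with the correction (median -0.48), against 10.8% and 2.39% of all genes called lower. Wfs1, an endoplasmic reticulum protein that marks dorsal CA1, stood at 329.6 and 254 CPM in WT VEH and 159 and 149 CPM in TAU VEH, a log2 fold change of -0.92 ± 0.18 (SE, adjusted p = 0.00497). Fibcd1, a chitin-binding membrane protein, stood at 365 and 371 CPM in WT VEH and 204 and 232 CPM in TAU VEH, a log2 fold change of -0.76 ± 0.12 (SE, adjusted p = 0.00177). Mpped1, a metallophosphoesterase, stood at 349.9 and 347 CPM in WT VEH and 206 and 222 CPM in TAU VEH, a log2 fold change of -0.70 ± 0.09 (SE, adjusted p = 0.00101). In all 3 the TAU VEH libraries lay below both WT VEH libraries, and Mpped1 and Nov were among the markers called with the correction.

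The summed CA1 markers of the home cage WT libraries were 1228, 918 and 1103 CPM and those of TAU MOL 994 and 979 CPM, all above the 689 and 739 CPM of TAU VEH. With 1 library left out the count called lower ran from 3 without TAU VEH replicate 1 or without WT VEH replicate 1 to 4 without either of the others, and Wfs1 lost its call without WT VEH replicate 1 (adjusted p = 0.0647). Markers of CA2 and CA3 had 0 of 8 called. Markers of neurons in general had Mtap2, a dendritic microtubule protein, higher (0.28) and Rbfox3, the NeuN antigen, lower (-0.33), and 0 called with the correction. Whether the layers of the tissue were sampled in equal shares was not tested.

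Neocortical and interneuron markers held 2 of 8 lower genes each, and 1 each with the correction. Of all genes 10.8% were called lower, and 2.39% with the correction. In lists this short, counts of 1 or 2 say little about a cell type. Fezf2, a transcription factor of deep cortical layers, stood at 35.4 and 34.0 CPM in WT VEH and 20.2 and 23.3 CPM in TAU VEH, a log2 fold change of -0.68 ± 0.09 (SE, adjusted p = 0.00126), and stayed called with the correction. Cux2, of upper cortical layers, was called at -0.43 and lost its call with the correction. Slc32a1, the vesicular GABA transporter, stood at 115 and 104 CPM in WT VEH and 82.3 and 81.6 CPM in TAU VEH (-0.42), and Pvalb, parvalbumin of fast-spiking interneurons, at 24.1 and 24.2 CPM in WT VEH and 18.6 and 18.0 CPM in TAU VEH (-0.40, -0.42 with the correction). The GABA synthesis genes Gad1 (0.04) and Gad2 (0.22) were not called. Of the 8 thalamic markers Lef1, a factor of Wnt signalling, was called lower (-0.74). Of the 7 oligodendrocyte precursor markers Cspg4 (-0.59) and C1ql1 (-0.41) were called lower, neither of which was called with the correction.

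Many genes for scaffold proteins of the postsynaptic density, the protein mesh that holds glutamate receptors opposite the release site, had less RNA in TAU VEH. Of 19 scaffold genes 11 were called lower and 1 higher, with a median of -0.46, against 10.8% of all genes called lower and 27.8% in the class of GC content (the ninth of 10) that holds the median of the list. Shank1, a master scaffold of the spine, stood at 906 and 786 CPM in WT VEH and 482 and 471 CPM in TAU VEH, a log2 fold change of -0.83 ± 0.12 (SE, adjusted p = 0.00167). Agap2, a GTPase activator bound to the Homer scaffold, stood at 3139 and 2816 CPM in WT VEH and 1787 and 1772 CPM in TAU VEH, a log2 fold change of -0.74 ± 0.09 (SE, adjusted p = 0.00102). Dlg4, which encodes PSD-95, stood at 1599 and 1569 CPM in WT VEH and 1059.8 and 1029 CPM in TAU VEH, a log2 fold change of -0.60 ± 0.07 (SE, adjusted p = 0.00101). The groups did not overlap in these genes, and the TAU VEH libraries were close to each other. These genes also lay in the highest of 10 classes by mean CPM, in which 34.2% of genes were called lower.

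The scaffold genes were rich in G and C, with a median GC content of 56.7%. With the correction 3 of the 19 stayed called lower (Agap2, Dlg4 and Dlgap3) and the median was -0.25. With the correction 2.39% of all genes were called lower, and 3.34% in the ninth class of GC content. Shank2, Shank3, Dlgap4, Nlgn2, Iqsec1 and Iqsec2 were also called lower, with log2 fold changes from -0.46 to -0.63. Dlg2, which encodes PSD-93 and has a GC content of 42.6%, was the member called higher, at 150.4 and 151 CPM in WT VEH and 189 and 177 CPM in TAU VEH (0.28), and it was not called with the correction. With 1 library left out 10 or 11 of the scaffold genes were called lower.

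Genes around CREB, the factor that couples synaptic activity to transcription, split by member. Of 22 genes 6 were called lower and 2 higher, with a median of -0.03, against 10.8% and 3.61% of all genes, and with the correction 3 and 0, against 2.39% and 0.488%. Camk2a, the calcium-dependent kinase of the synapse and 1 of the 3 most abundant genes called lower, stood at 10559.7 and 10100.5 CPM in WT VEH and 7232 and 6898 CPM in TAU VEH, a log2 fold change of -0.55 ± 0.09 (SE, adjusted p = 0.00186). Crtc1, a coactivator that carries synaptic signals to the nucleus, stood at 684 and 638 CPM in WT VEH and 437 and 429.9 CPM in TAU VEH, a log2 fold change of -0.61 ± 0.09 (SE, adjusted p = 0.00142). Pde4a, a phosphodiesterase that degrades cAMP, stood at 182 and 166 CPM in WT VEH and 115 and 113 CPM in TAU VEH, a log2 fold change of -0.61 ± 0.08 (SE, adjusted p = 0.00101). These 3 genes separated the groups and stayed called with the correction (adjusted p = 0.0228, 0.0418 and 0.0324) and with any of the 4 libraries left out.

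The other lower members were Crtc2 (-0.35), Crtc3 (-0.29) and Prkaca, a catalytic subunit of protein kinase A (-0.39). Creb1 itself was called higher at 29.5 and 25.5 CPM in WT VEH and 36.7 and 33.2 CPM in TAU VEH (0.35, adjusted p = 0.0289), and Camk4, a nuclear kinase that phosphorylates CREB, at 70.4 and 68.2 CPM in WT VEH and 88.8 and 91.3 CPM in TAU VEH (0.38, adjusted p = 0.00242), and neither was called with the correction. Creb1 lost its call without TAU VEH replicate 1 (adjusted p = 0.25), without TAU VEH replicate 2 (adjusted p = 0.0535) and without WT VEH replicate 2 (adjusted p = 0.247).

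Enzymes that add or remove lysine acetylation had 6 of 28 called lower and 0 higher, with a median of -0.04, and 1 lower with the correction, against 10.8% and 2.39% of all genes called lower. The corrected count is near that background. Hdac5, a class IIa deacetylase that leaves the nucleus upon activity, stood at 308 and 291 CPM in WT VEH and 204 and 197 CPM in TAU VEH, a log2 fold change of -0.58 ± 0.07 (SE, adjusted p = 0.000993), and stayed called with the correction (-0.32, adjusted p = 0.0355). Hdac7 (-0.43), Hdac11 (-0.35), Kat2a (-0.26), Sirt3 (-0.27) and Sirt6 (-0.28) were the other lower members. The class I deacetylases Hdac1, Hdac2 and Hdac3 stood at 0.05, 0.12 and -0.10 on the log2 scale and were not called. No histone gene of 14 was called, in a preparation that selects polyadenylated RNA.

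**Figure D4:**
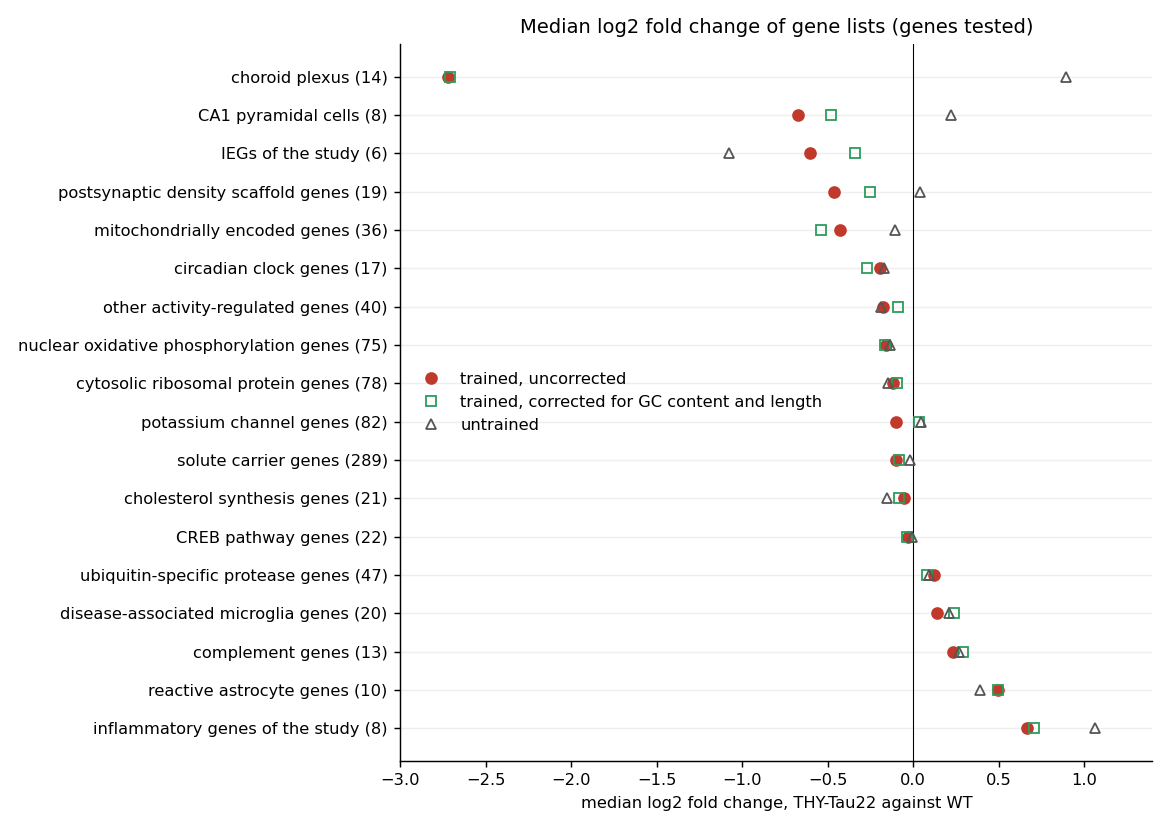
The median log2 fold change (x axis) of gene lists (y axis, with the number of genes tested in brackets) is plotted for TAU VEH against WT VEH without and with the correction, and for untrained THY-Tau22 against WT. Choroid plexus markers stood at -2.72 in trained mice and at 0.90 in untrained mice (0.17 without untrained THY-Tau22 replicate 2), postsynaptic scaffolds moved from -0.46 to -0.25 with the correction, and the inflammatory genes stood at 0.67 or higher in all 3.

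Ion channels and receptors held calls in both directions, to be read against 10.8% of all genes called lower and 3.61% higher, and 2.39% and 0.488% with the correction. Of 82 potassium channel genes 14 were called lower and 5 higher, and with the correction 4 and 3. Kcnma1, the BK channel that shortens the action potential, was called higher at 39.2 and 38.5 CPM in WT VEH and 54.9 and 55.7 CPM in TAU VEH (0.51, adjusted p = 0.00127), and Kcna2, a channel of the axon, at 26.2 and 21.9 CPM in WT VEH and 35.4 and 35.4 CPM in TAU VEH (0.56, adjusted p = 0.00436). Both stayed called with the correction, and Kcna2 lost its call without WT VEH replicate 2 (adjusted p = 0.0541). Kcnh3 (-0.76), a channel of forebrain pyramidal neurons, was called lower in both fits, and the largest decreases of the family were the choroid plexus genes Kcnj13 and Kcne2.

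Of 36 voltage-gated sodium and calcium channel genes 10 were called lower and 5 higher (10.8% and 3.61% of all genes), and 3 and 0 with the correction (2.39% and 0.488% of all genes). Cacna1i, a low-threshold calcium channel, stood at 157 and 148 CPM in WT VEH and 91.2 and 93.5 CPM in TAU VEH, a log2 fold change of -0.72 ± 0.07 (SE, adjusted p = 0.000957), and stayed called with the correction. Scn7a, a sodium-sensing channel of glia, stood at 1.47 and 1.75 CPM in WT VEH and 3.49 and 3.55 CPM in TAU VEH, a log2 fold change of 1.13 ± 0.23 (SE, adjusted p = 0.00731). It was not called with the correction (adjusted p = 0.0574), without TAU VEH replicate 1 (adjusted p = 0.0549) or without WT VEH replicate 1 (adjusted p = 0.0748). Ionotropic glutamate receptors had 4 of 16 lower and 3 higher: Grik5 (-0.56), Grin1 (-0.48), Grin2c (-0.53) and Grin2d (-0.50) were lower and Grin2a (0.42), Grik2 (0.48) and Gria2 (0.26) higher, and only Grin2a, an NMDA receptor subunit of mature synapses, was called with the correction. Of 7 metabotropic receptor genes 3 were called higher and 1 lower, and 2 and 0 with the correction. Among them Grm5 (0.23) and Grm7 (0.44) were higher and Grm4 (-0.61) lower, and of these Grm7 stayed called with the correction. Of 15 GABA-A receptor subunits 2 were called higher and 0 lower, and 0 in either direction with the correction. Gabrb1 (0.39) was 1 of the 2.

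Some genes of the mitochondrial genome were lower, although genes of low GC content were on the whole higher. Of 36 mitochondrially encoded genes 12 were called lower and 0 higher, with a median of -0.43, and with the correction 19 (median -0.54), against 10.8% and 2.39% of all genes called lower, their median GC content being 35.5%. Of the 12 lower genes 7 were among the 22 tRNA genes tested, in a preparation that selects polyadenylated RNA and keeps no strand. mt-Co2, a subunit of cytochrome oxidase, stood at 8414 and 7686 CPM in WT VEH and 6089 and 5140.2 CPM in TAU VEH, a log2 fold change of -0.52 ± 0.12 (SE, adjusted p = 0.0113). mt-Cytb, of complex III, stood at 11122 and 10443 CPM in WT VEH and 8812 and 7179.6 CPM in TAU VEH, a log2 fold change of -0.43 ± 0.12 (SE, adjusted p = 0.0301). The tRNA gene mt-Ta stood at 33.1 and 29.7 CPM in WT VEH and 14.6 and 11.7 CPM in TAU VEH, a log2 fold change of -1.25 ± 0.22 (SE, adjusted p = 0.00348). The groups did not overlap in these genes. The summed list stood at 81426 and 75849 CPM in WT VEH and 67499 and 53229 CPM in TAU VEH. Home cage WT libraries held 60975.5, 77932 and 78560 CPM, so that 1 of them lay below TAU VEH replicate 1.

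The number of mitochondrial calls depended on single libraries, TAU VEH replicate 2 being the shallowest of them. Without TAU VEH replicate 2 the list had 2 genes called lower, without TAU VEH replicate 1 it had 16, without WT VEH replicate 1 it had 3 and without WT VEH replicate 2 it had 6. The tRNA genes mt-Ta and mt-Tn kept their calls in every such fit, and mt-Co2 lost its call without TAU VEH replicate 2 (adjusted p = 0.115) and without WT VEH replicate 1 (adjusted p = 0.101). mt-Cytb lost its call without TAU VEH replicate 2 (adjusted p = 0.232), WT VEH replicate 1 (adjusted p = 0.17) or WT VEH replicate 2 (adjusted p = 0.0904).

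Nuclear genes of oxidative phosphorylation had 10 of 75 called lower and 0 higher, with a median of -0.16, and 4 with the correction, against 10.8% of all genes called lower without the correction and 2.39% with it. The uncorrected count is near that background and by itself says nothing particular about these genes. It was 3 with library size alone, 18 with the replicate block and 20 in a fit of only the 4 libraries. Of the 75 genes 70 had a negative log2 fold change, and the median was -0.01 with library size alone. Cox8a, a small subunit of cytochrome oxidase, stood at 577 and 576 CPM in WT VEH and 343 and 371 CPM in TAU VEH, a log2 fold change of -0.69 ± 0.08 (SE, adjusted p = 0.00101). Atp5g2, a ring subunit of the ATP synthase, stood at 84.1 and 89.8 CPM in WT VEH and 55.0 and 60.6 CPM in TAU VEH, a log2 fold change of -0.59 ± 0.09 (SE, adjusted p = 0.00194). Both stayed called with the correction and with any of the 4 libraries left out. Of 78 cytosolic ribosomal protein genes 4 were called lower (2 with the correction), led by Rplp1 of the ribosomal stalk (-0.59), and of 72 mitochondrial ones 1, Mrps12 (-0.39). Of 37 proteasome genes Psmb5 was called lower (-0.38), with 1 gene called lower with the correction. Of 19 genes of the vesicular ATPase, the pump that acidifies lysosomes and synaptic vesicles, 5 were lower and 1 higher (2 and 0 with the correction), and Atp6v0b stood at 296 and 308 CPM in WT VEH and 192 and 196 CPM in TAU VEH, a log2 fold change of -0.64 ± 0.08 (SE, adjusted p = 0.00102), and stayed called with the correction.

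Several clock genes were lower in TAU VEH. Of 17 genes of the circadian clock 7 were called lower and 2 higher, with a median of -0.19, and with the correction 5 and 0 (median -0.27). Of all genes 10.8% were called lower and 3.61% higher, and 2.39% and 0.488% with the correction. Nr1d1, which encodes the repressor REV-ERB alpha, stood at 139.8 and 138 CPM in WT VEH and 70.0 and 89.1 CPM in TAU VEH, a log2 fold change of -0.81 ± 0.11 (SE, adjusted p = 0.00124). Dbp, an output factor of the clock, stood at 52.3 and 56.3 CPM in WT VEH and 27.8 and 42.1 CPM in TAU VEH, a log2 fold change of -0.65 ± 0.15 (SE, adjusted p = 0.0117). Npas2, a forebrain partner of BMAL1, stood at 23.7 and 24.9 CPM in WT VEH and 17.0 and 17.2 CPM in TAU VEH, a log2 fold change of -0.50 ± 0.08 (SE, adjusted p = 0.0021). Nr1d1, Npas2, Cry2 (-0.40), Bhlhe40 (-0.41) and Bhlhe41 (-0.26) stayed called with the correction.

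Clock (0.37) and Rora (0.35), activators of the loop, were called higher without the correction alone. Arntl, which encodes BMAL1, stood at 23.2 and 21.3 CPM in WT VEH and 25.6 and 24.8 CPM in TAU VEH and was not called. With 1 library left out from 3 to 6 clock genes were called lower, the lowest counts being those without TAU VEH replicate 1 and without WT VEH replicate 1, and Dbp lost its call without TAU VEH replicate 1 (adjusted p = 0.0704), WT VEH replicate 1 (adjusted p = 0.0514) or WT VEH replicate 2 (adjusted p = 0.0928). Nr1d1 overlaps Thra and Dbp overlaps Sphk2 on the other strand. According to the study's methods all mice were killed in the same morning window, with the order randomised over the groups, and the hour of each mouse is not given in the sources used here.

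Among 21 genes of cholesterol synthesis and its control, 5 were called lower and 0 higher, with a median of -0.05, and 1 lower with the correction, against 10.8% and 2.39% of all genes called lower. That gene was Mvd, which encodes mevalonate diphosphate decarboxylase, at 22.8 and 22.96 CPM in WT VEH and 9.69 and 10.2 CPM in TAU VEH, a log2 fold change of -1.21 ± 0.10 (SE, adjusted p = 0.000443). Mvk and Tm7sf2, enzymes of the same route, stood at -0.42 and -0.55, and Srebf2, the factor that controls it, at -0.41.

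Mvd was low in every THY-Tau22 library, at 9.26 and 8.63 CPM in TAU MOL and at 11.9 and 8.96 CPM in untrained THY-Tau22 mice against 26.3, 23.4 and 26.2 CPM in untrained WT mice. Its neighbours were looked at after its values were seen. Of the 7 tested genes within 50 kb of Mvd on chromosome 8 (mm9), Mvd itself included, 6 were called lower: Cyba (chr8:124948672-124956840, -0.90), Mvd (chr8:124957496-124967322, -1.21), 9330133O14Rik (chr8:124967556-124969547, -0.76), Rnf166 (-0.39), Ctu2 (-0.43) and Fam38a (-0.82), while Zc3h18 (-0.03) was not. With the correction 3 of the 6 stayed called, Cyba (-0.59), Mvd (-0.91) and 9330133O14Rik (-0.83), and Rnf166 (adjusted p = 0.473), Ctu2 (adjusted p = 0.655) and Fam38a (adjusted p = 0.157) did not. All of the 6 but 9330133O14Rik lay in the highest of the 10 classes by GC content, in which 43.3% of the genes were called lower. Cyba, a subunit of the NADPH oxidase of phagocytes, stood at 9.96 and 9.80 CPM in WT VEH and 5.07 and 5.55 CPM in TAU VEH. In the untrained mice the log2 fold changes were -0.45 for Cyba, -1.28 for Mvd, -0.50 for 9330133O14Rik, -0.38 for Rnf166, -0.11 for Ctu2 and 0.23 for Fam38a. The gene models of Mvd and of Irf8 overlap the long model Gm20388, which can take reads from them.

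Larger gene families were counted in the same way, to be read against the 10.8% of all genes called lower and 3.61% called higher (2.39% and 0.488% with the correction), over the members that passed the filter on low counts: 289 of 337 solute carrier genes, 51 of 54 collagen and laminin genes, 329 of 341 zinc finger genes, 82 of 93 potassium channel genes and 14 of 58 histone genes. Of 289 solute carrier genes 65 were called lower and 13 higher, and 15 and 1 with the correction, and Slc4a5 and Slc16a8 had the largest decreases. Of 51 collagen and laminin genes 8 were lower and 2 higher, led by Col17a1 and Col8a1 (-2.63 and -2.52), and 4 lower and 1 higher with the correction. Col8a1, a short-chain collagen of basement membranes, stood at 9.91 and 6.38 CPM in WT VEH and 1.44 and 1.396 CPM in TAU VEH. Of 329 zinc finger genes named Zfp 26 were lower and 10 higher, led by Zfp703 (-0.68) and Zfp871 (0.63), and 3 and 1 with the correction.

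Of 47 ubiquitin-specific proteases 8 were higher and 5 lower, and 0 and 1 with the correction. Usp9x, an abundant deubiquitinase of neurons, stood at 108 and 103 CPM in WT VEH and 152 and 143 CPM in TAU VEH (0.49), and Usp21 at 62.8 and 65.5 CPM in WT VEH and 43.1 and 42.0 CPM in TAU VEH (-0.59), which was the 1 called with the correction. Of 31 ubiquitin-conjugating enzymes 3 were lower, Ube2m, Ube2o and Ube2r2, and 2 with the correction. Of 36 protocadherins 6 were higher and 2 lower, led by Pcdhb18 (0.65) and Pcdh1 (-0.54), and 0 and 1 with the correction. Of 52 Rab genes 5 were lower and 1 higher, and 0 with the correction.

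Of 40 synaptotagmin and SNARE genes, which drive vesicle release, 5 were lower and 1 higher, and 3 and 0 with the correction, the uncorrected counts being near the 10.8% and 3.61% of all genes. Syt2, the calcium sensor of fast synapses, stood at 64.5 and 49.3 CPM in WT VEH and 36.1 and 29.9 CPM in TAU VEH, a log2 fold change of -0.78 ± 0.13 (SE, adjusted p = 0.00282). Vamp2, the vesicle SNARE of most synapses, stood at 2020.1 and 1999 CPM in WT VEH and 1434 and 1304 CPM in TAU VEH, a log2 fold change of -0.55 ± 0.08 (SE, adjusted p = 0.00126). Both stayed called with the correction and with any of the 4 libraries left out.

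Genes of stress responses were called about as often as genes in general, with 7 of 50 called over 3 lists against 14.4% of all genes tested. Of 17 cytosolic heat shock genes 2 were higher and 2 lower, with Hspa1b at 9.04 and 9.59 CPM in WT VEH and 11.5 and 12.5 CPM in TAU VEH (0.36, and 0.63 with the correction, when it stayed called) and Bag3, a cochaperone of the Hsp70 proteins, at 24.1 and 20.0 CPM in WT VEH and 16.2 and 16.5 CPM in TAU VEH (-0.43). Both lost their calls without TAU VEH replicate 1 (adjusted p = 0.0976 and 0.115), TAU VEH replicate 2 (0.181 and 0.0726) or WT VEH replicate 1 (0.163 and 0.16), and Hspa1b also without WT VEH replicate 2 (0.0992). Of 21 genes of endoplasmic reticulum stress 2 were lower, Sdf2l1 (-0.53) and Xbp1 (-0.29), and 0 with the correction. Of 12 glucocorticoid-responsive genes 1 was higher, Plin4, a lipid droplet protein, at 3.82 and 5.46 CPM in WT VEH and 7.27 and 12.2 CPM in TAU VEH, a log2 fold change of 1.05 ± 0.27 (SE, adjusted p = 0.0245). Plin4 overlaps Hdgfrp2, and its call was lost without TAU VEH replicate 2 (adjusted p = 0.2), WT VEH replicate 1 (adjusted p = 0.188) or WT VEH replicate 2 (adjusted p = 0.0501).

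The other genes among the largest increases were Dnahc5, Dgkh and Ggta1, and after the correction Purb and Tmem132b. Dgkh, a diacylglycerol kinase, stood at 15.2 and 12.5 CPM in WT VEH and 25.4 and 21.7 CPM in TAU VEH, a log2 fold change of 0.77 ± 0.13 (SE, adjusted p = 0.003), and kept its call with the correction and with any of the 4 libraries left out. Dnahc5, a dynein heavy chain of motile cilia, stood at 4.79 and 4.77 CPM in WT VEH and 10.3 and 7.25 CPM in TAU VEH, a log2 fold change of 0.89 ± 0.22 (SE, adjusted p = 0.0167), and Ggta1, a galactosyltransferase, at 3.84 and 3.23 CPM in WT VEH and 5.49 and 6.19 CPM in TAU VEH, a log2 fold change of 0.71 ± 0.17 (SE, adjusted p = 0.0176). Neither stayed called with the correction (adjusted p = 0.06 and 0.0641). Dnahc5 lost its call without TAU VEH replicate 1, WT VEH replicate 1 or WT VEH replicate 2 (adjusted p = 0.223, 0.101 and 0.109), and Ggta1 without TAU VEH replicate 1, TAU VEH replicate 2 or WT VEH replicate 2 (adjusted p = 0.0645, 0.102 and 0.148). Purb, a DNA-binding protein with a GC content of 71.3%, stood at 9.89 and 9.11 CPM in WT VEH and 12.3 and 12.5 CPM in TAU VEH (0.38, 0.70 with the correction). Spna2, the gene of brain alpha spectrin, which was with Thy1 and Slc1a2 among the 3 most abundant genes called higher, stood at 925 and 951 CPM in WT VEH and 1066 and 1120.3 CPM in TAU VEH, a log2 fold change of 0.22 ± 0.06 (SE, adjusted p = 0.0416). Purb and Spna2 lost their calls with any of the 4 libraries left out, with adjusted p up to 0.184 and 0.233.

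Many calls needed all 4 libraries, beside those given above. Fosb, Trib1, Dusp5 and Dusp6 among the activity genes, Osmr, Mtap2, Rbfox3, Pvalb and C1ql1 among the cell markers, Crtc2, Crtc3, Kat2a, Sirt3 and Sirt6 among the regulators of transcription, Gria2, Grm5 and Gabrb1 among the receptors, and Xbp1 and Pcdhb18 were called in none of the 4 fits with a library left out, their highest adjusted p running from 0.0684 for Dusp5 to 0.292 for Crtc3. Called in 1 of the 4 fits were Egr2, Sik1, Vgf, Bhlhe41, Shank3, Grm4 and Slc32a1 (without WT VEH replicate 2), Aqp4, Slc1a2, Grin2a, Rora, Pikfyve and Ube2r2 (without WT VEH replicate 1), Csrnp1, Dlg2, Cux2 and Mrps12 (without TAU VEH replicate 2), and Sdf2l1 and Tmem132b (without TAU VEH replicate 1), with highest adjusted p from 0.0783 for Pikfyve to 0.369 for Egr2. Lost without TAU VEH replicate 1 and without WT VEH replicate 1 were the calls of Bhlhe40, Hdac7, Tm7sf2, Tap2, Tapbp, Lef1, Cspg4, Grin2c and Grik2, with adjusted p up to 0.198 for Lef1. Lost without TAU VEH replicate 1 and without WT VEH replicate 2 were those of Clock, Hdac11, Mvk, Nov, Psmb5, Ube2m, Ube2o and Zfp871, with adjusted p up to 0.265 for Psmb5. Grin2d lost its call without TAU VEH replicate 1 (adjusted p = 0.0511), and 9330133O14Rik without TAU VEH replicate 2 (adjusted p = 0.0628) or WT VEH replicate 2 (adjusted p = 0.0717).

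The untrained mice give a second comparison of the genotypes, in animals that share no library with the 4 above. For them the labels name no injection. Marker lists of tissue moved there too. Median log2 fold changes were -0.47 for oligodendrocytes, -0.63 for ependyma, -0.50 for thalamus and 0.67 for meninges, with no marker called. The oligodendrocyte and ependyma lists held only negative values with any untrained library left out. The meninges stood at -0.50 without untrained THY-Tau22 replicate 1. The part of composition in that contrast was not tested. The 2 tables were fitted separately, and no difference between the contrasts was tested. Of 604 genes called higher in trained mice and tested in both, 573 (94.9%) had a positive log2 fold change in untrained mice, against 48.4% of all 16216 genes. Of 1807 called lower, 1355 (75.0%) had a negative one, against 51.6%. The trend with GC content was also present there, with rho of -0.301 (0.038 with the correction). With the correction in the untrained fit the shares were 75.5% against 44.1% for genes called higher and 64.4% against 55.9% for genes called lower. These shares rested on untrained THY-Tau22 replicate 2. Without it 292 of 604 genes called higher (48.3%, against 47.2% of all genes) and 508 of 1808 called lower (28.1%, against 52.8%) kept the trained sign, and rho with GC content was 0.282. With the correction as well, the shares without that library were 57.6% against 45.3% and 50.3% against 54.7%. Without untrained THY-Tau22 replicate 1 the uncorrected shares were 97.0% and 87.6%, and rho was -0.545.

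Among genes called in both trained fits, with and without the correction, 425 had a value in untrained mice. Of these, 44 (10.4%) had the same sign and an unadjusted p under 0.05 there, 21 higher and 23 lower, against 4.87% of all untrained genes with such a p in either direction. The higher genes held glial genes (Gfap, C4b, Itgax, Clec7a, Lyz2 and Irf8), Thy1, the channel gene Kcnma1, the receptor subunit Grin2a, Stxbp5l, which restrains vesicle release, and Vps13c and Pikfyve, which act in lipid transfer and endosome maturation. The lower genes held the IEGs Nr4a1 and Egr1, the phosphatase Dusp6, Mvd, Cyba, the muscarinic receptor gene Chrm4, and Bad, a promoter of apoptosis. These genes were picked by their values in both experiments. Each kept its sign with any of the 5 untrained libraries left out, which that choice largely fixed beforehand, so nothing is read from it. Of all genes called in both trained fits, 308 of 425 had the trained sign in untrained mice, and 202 of 426 without untrained THY-Tau22 replicate 2.

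In untrained mice Clec7a stood at 0.757, 0.316 and 0.566 CPM in WT and 1.77 and 5.12 CPM in THY-Tau22, and Itgax at 0.351, 0.603 and 0.377 CPM in WT and 1.12 and 2.79 CPM in THY-Tau22. Gfap stood at 668, 567 and 643 CPM in WT and 884 and 1087 CPM in THY-Tau22. For these 3 genes the untrained groups did not overlap, and their log2 fold changes were 2.64, 2.12 and 0.65 beside 2.78, 2.11 and 0.70 in trained mice. Arc stood at 293, 233 and 189 CPM in untrained WT and 80.8 and 61.7 CPM in untrained THY-Tau22 mice (-1.74, adjusted p = 0.0261), and Nr4a1 at 84.1, 86.7 and 87.9 CPM in WT and 39.5 and 38.2 CPM in THY-Tau22 (-1.15, adjusted p = 0.016). The IEG list had a median of -1.08 in untrained and -0.60 in trained mice. The untrained median ran from -1.10 to -0.95 with 1 untrained library left out. In the untrained fit 2 genes of the list were called, 0 without untrained WT replicate 2 and 1 without untrained WT replicate 3.

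In the untrained mice postsynaptic scaffolds had a median of 0.04 beside -0.46 in trained mice, CA1 markers 0.22 beside -0.67 and mitochondrially encoded genes -0.11 beside -0.43. Clock genes stood at -0.17 beside -0.19, and ran from -0.24 to -0.05 with 1 untrained library left out. The same fits gave -0.06 (without THY-Tau22 replicate 1) to 0.13 for scaffolds, 0.05 (without WT replicate 1) to 0.35 for CA1 markers and -0.16 to -0.0043 (without WT replicate 2) for mitochondrially encoded genes. Wfs1 stood at 212, 141 and 226 CPM in untrained WT and 196 and 160.4 CPM in untrained THY-Tau22 mice, and Shank1 at 490.1, 309.6 and 425 CPM in WT and 518 and 404 CPM in THY-Tau22, with the groups overlapping in both. Camk2a had an untrained log2 fold change of -0.02 beside -0.55 in trained mice. The untrained fit called 4 of the genes called in trained mice, at 28639121 to 37681155 counts per library and with a larger spread between mice (a common coefficient of variation of 0.129 against 0.084).

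**Figure D5:**
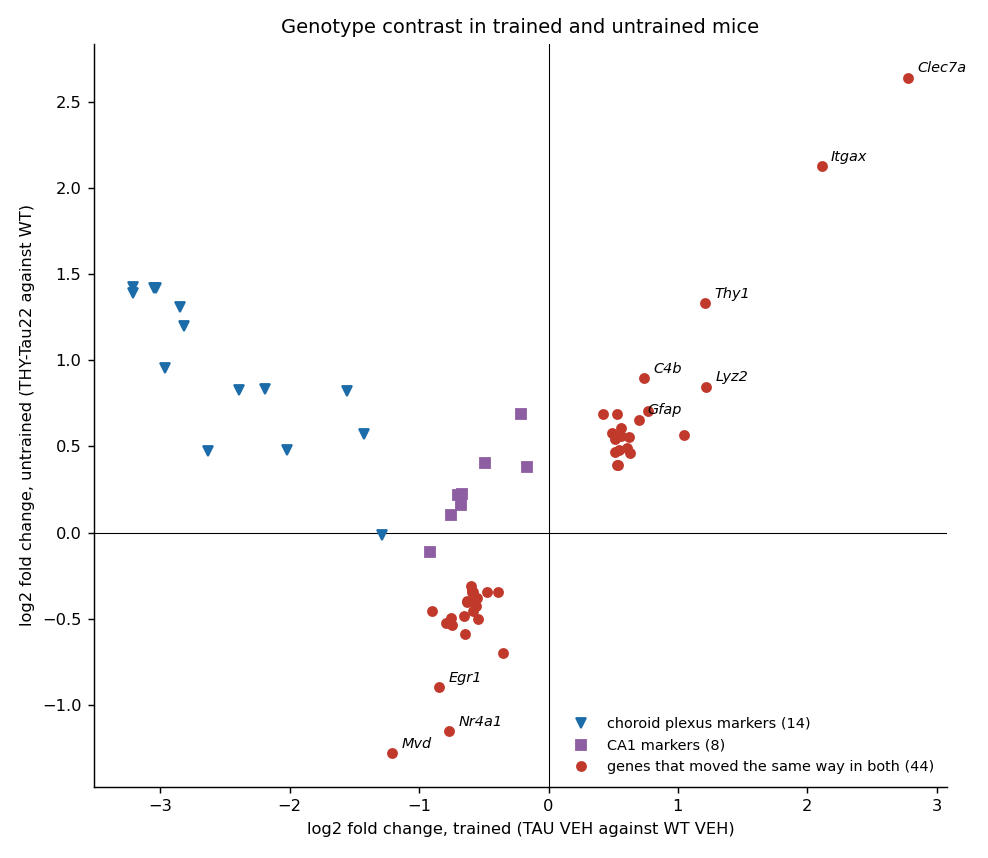
Each point is a gene, with its log2 fold change of TAU VEH against WT VEH in trained mice on the x axis and of THY-Tau22 against WT in untrained mice on the y axis. The 44 genes chosen for moving the same way in both (red) include Clec7a and Itgax at the top right and Mvd at the bottom left, the 14 choroid plexus markers lie to the left, 13 of them above 0 (8 without untrained THY-Tau22 replicate 2), and 7 of the 8 CA1 markers lie left of and above 0.

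Calls were spread over all chromosomes. Between 6.45% (chromosome 13) and 19.2% (chromosome 15) of the tested genes of an autosome were called, and the median GC content of these chromosomes was 46.7% and 52.6%. The mitochondrial genome had 33.3% of its genes called, and 52.8% with the correction. Of 15218 protein-coding genes 596 were higher and 1778 lower, and of 694 long intergenic RNA genes 6 were higher and 9 lower.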

How the data were processed

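Poly(A) RNA of the dorsal hippocampus of single mice was sequenced with a kit that keeps no strand. The counts were made by the authors with CASAVA 1.8.2 for base calling, TopHat2 2.0.10 on Bowtie2 2.1.0 against the mm9 genome, and HTSeq 0.5.4p3, and were deposited as whole reads per gene. The deposited tables also hold a normalized signal, counts divided by 1 factor per library with DESeq2 by the authors, which entered no test. Lines that name no gene (138) were left out. No further per-sample column was left out (0).

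The counts were fitted with edgeR 4.0.16 (limma 3.58.1, R 4.3.3; quasi-likelihood test, TMM factors, filter on low counts by group, Benjamini-Hochberg adjustment) with all 9 libraries of the learning experiment in 1 fit. The untrained mice had a fit of their own. The correction removed a loess curve (span 0.3) of log2 CPM (prior count 1) on GC content and exon length per library as an offset, with 40 of the 16820 genes lacking GC content and left uncorrected. The choroid plexus score is the mean log2(CPM + 0.05) of the markers. DESeq2 1.42.0 was an alternative test. Tables came from pandas 2.3.3, numpy 2.4.6 and scipy 1.17.1 under Python 3.11.15, and plots from matplotlib 3.10.9. The fits were tested on simulated data before use.

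The comparison, the gene lists and the tests were chosen with earlier results of these data known. Named genes were Mapt, Thy1, Crebbp, Ep300 and the genes of the study's lists, the 8 largest increases and the 8 largest decreases among called genes with a mean of at least 100 counts and no overlap, the same by corrected fold change among genes called in both fits and in no choroid plexus list, the 2 called members of each list with the largest fold change, and the 3 most abundant called genes in each direction. Further list members, members of the group of 44 genes and the neighbours of Mvd were named after their values were seen. Psmb9 and Hmgcs1 were not matched to a tested gene. Some genes that the rule names are not reported here, although counts over lists include them. The labels call the replicates separate samples and the study's methods treat each as a mouse, no 2 libraries held the same values, and alternatives covered the normalization, the filter, the samples in the fit, GC content, the choroid plexus score, depth, the replicate number and each library left out.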

Additional observations from a re-analysis of the deposited data

Results flagged for a closer look

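In 9 of the 113 genes named by rule, both TAU VEH libraries lay on 1 side of both WT VEH libraries in the trained mice, while both untrained THY-Tau22 libraries lay on the other side of the 3 untrained WT libraries. In 32 of the 113 the libraries were separated in the same direction in both experiments. Of all 16216 genes tested in both experiments, 2.59% were separated in opposite directions and 7.39% in the same one, and of the 2411 called in trained mice 2.03% and 10.8%. Most of the 113 were chosen among genes called in the trained mice, so nothing is read from their counts. All 9 genes were lower in trained THY-Tau22 mice and higher in untrained ones. The difference between the contrasts was not tested.

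Choroid plexus markers made up the first of them. Kl had an untrained log2 fold change of 0.57 beside -1.42 in trained mice, Kcnj13 of 1.39 beside -3.21, and Slc4a5 of 1.42 beside -3.03. In Kcnj13 the untrained THY-Tau22 libraries stood at 1.77 and 4.38 CPM and the untrained WT libraries at 0.946, 1.61 and 0.943 CPM, so that 1 THY-Tau22 library held most of the difference. Trpv4 had 0.82 beside -2.74, Slc16a8 0.53 beside -2.61, Abca4 1.09 beside -2.18 and F5 1.27 beside -2.00. None of these 7 untrained differences was called, with adjusted p from 0.66 for F5 upwards.

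The other 2 were small. Crebbp, which encodes the acetyltransferase CBP, had an untrained log2 fold change of 0.20 (adjusted p = 0.901) beside -0.22 in trained mice (adjusted p = 0.0846). Grin2c, an NMDA receptor subunit, had 0.22 (adjusted p = 0.901) beside -0.53 (adjusted p = 0.00658).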

How the results depend on the processing

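Correcting for GC content and length gave 484 called genes (82 higher, 402 lower) in place of 2423 (608 higher, 1815 lower), 428 of them called the same way in both fits (51 higher, 377 lower), and with the replicate block beside it 773 (158 higher, 615 lower). It also took rho of GC content and fold change from -0.517 to -0.020 and the called genes with the same sign in untrained mice from 1928 of 2411 to 341 of 481, with both experiments corrected. Without untrained THY-Tau22 replicate 2, a fit chosen after the data were seen, 800 of 2412 shared the sign, and with any of the other untrained libraries left out 1766 to 2175. Library size alone gave 2578 higher and 1020 lower, with 2942 of 3584 sharing the untrained sign, and a fit of only the 4 libraries 1151 higher. The choroid plexus term left 0 called, 0 higher and 0 lower, at which point the fold changes of Cd74 (-1.44), Mapt (-0.17), Grik4 (-0.49), Sv2b (-0.081), Ttr (0.66), Tmem72 (0.77), Slc16a8 (0.16), Grm4 (0.038), Usp29 (-0.10) and Slc32a1 (0.0085) had the opposite sign with none of them called. With 1 library left out, 915 to 1276 genes were called, 101 to 195 higher and 814 to 1123 lower, Dusp1 ran from -0.32 to 0.026 and Grik4 from -0.042 to 0.38.

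The replicate block alone gave 2794 called genes (813 higher, 1981 lower), of which 2382 were called without it. The deviations of WT VEH replicate 1 and TAU VEH replicate 1 from their group means correlated at 0.106 across 16820 genes. With 2 libraries per group replicate 2 mirrors replicate 1, so this is 1 comparison. It does not show that replicate numbers pair the mice. DESeq2 called 2479 genes (2225 shared), other size factors 2367, no filter 2872, a mean of 10 counts 2442, thinning to the shallowest library 2257, and no limit on the fold change 2423. Of 101 called named genes, 46 lost their call with the correction, 18 with library size alone, 6 with thinning, 3 with DESeq2 and 0 with the block. Of the 12 named genes not called, Ep300 gained a call with the block, Sv2b with the block, DESeq2, no filter, only the 4 libraries and library size alone, Homer3 with the correction and library size alone, and Ccl6 with library size alone. List medians between 0 and -0.15 turned positive under library size alone, while those of the choroid plexus, CA1, scaffold, IEG, mitochondrial and clock lists kept theirs. A library left alone in its group was assumed to vary like the other groups. The causes were not tested. With 2 mice per group, small differences were not resolved.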
